A study of Mus musculus with 6 samples.

Results

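The proteasome is the large protease that breaks down proteins tagged with ubiquitin. Its core particle (20S) is a barrel of alpha and beta rings in which 3 beta subunits cut, and its regulatory particle (19S) recognizes, unfolds and feeds in the substrate. In immune cells the 3 cutting subunits can be exchanged for Psmb8, Psmb9 and Psmb10, which form the immunoproteasome and favour peptides that fit MHC class I. Proteasome activity is also needed for NF-κB signalling, through which RANKL, the cytokine that drives osteoclast formation, acts on macrophages.

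The genes described here are the proteasome rows of the deposited table, found by an annotation rule that uses no measured value. They were chosen with earlier results of these data known. A row was taken when its pathway annotation held the KEGG proteasome entry or its symbol began with Psma, Psmb, Psmc, Psmd, Psme, Psmf or Psmg. The rule found 54 of 11031 rows, 41 by both criteria, 9 by symbol only and 4 by pathway only (Adrm1, Adrm1b, Pomp and Sem1). The series holds 3 RANKL samples and 3 Ctrl samples of RAW264.7, a mouse macrophage line that forms osteoclasts under RANKL. The Ctrl cells received no stimulus, and RNA of both groups was taken at day 3. Whether the samples of a group came from separate cultures beyond their description as biological replicates is not stated.

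The question of the series, how RANKL changes transcript levels, could not be put to these genes here. The 12 columns of values per library carry letters that match no sample title, so no value was assigned to RANKL or Ctrl, and the fold changes and p-values that the authors computed were left unused. What remains is the authors' mean level of each row over libraries, FPKM on a log scale of unknown base and offset. It is a level per transcript length, but the length the authors used for each gene is not stated. Differences between genes are therefore descriptions that can depend on those lengths. The mean carries no SD, no n and no depth, and a difference on it is not converted to a fold. The libraries that enter the mean are not named, and fewer cells and less RNA per cell cannot be told apart in such bulk values. A percentile gives the place of a gene among the 11031 rows and does not depend on the log base.

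The constitutive subunits of the complete particle formed a high band. All 33 of them lay above the 80 percentile of the table, with a median level of 6.44 and a range from 5.45 (Psma2) to 7.96 (Psmd8). The 21 other members, which are alternative subunits, chaperones, activators, an inhibitor, copies and rows that share only the prefix, had a median of 4.41 and ranged from 1.21 (Adrm1b) to 6.34 (Psme2). The spread between genes was 0.72 in the constitutive set and 1.24 in the other members (SD over 33 and 21 genes, which are not replicates). Within the other members it was 0.71 over the 3 immunoproteasome genes and 0.62 over the 5 genes of core particle assembly. Over the 4 activators, and over the 3 assembly genes of the regulatory particle, it was 1.13. Over all 54 members the median level was 5.83, at the 88.5 percentile, against 3.60 for all rows. At or above the median of all rows lay 49 of the 54, and the 5 below it were Psma8, Psmd9, Psmf1, Psmc3ip and Adrm1b.

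**Figure D1:**
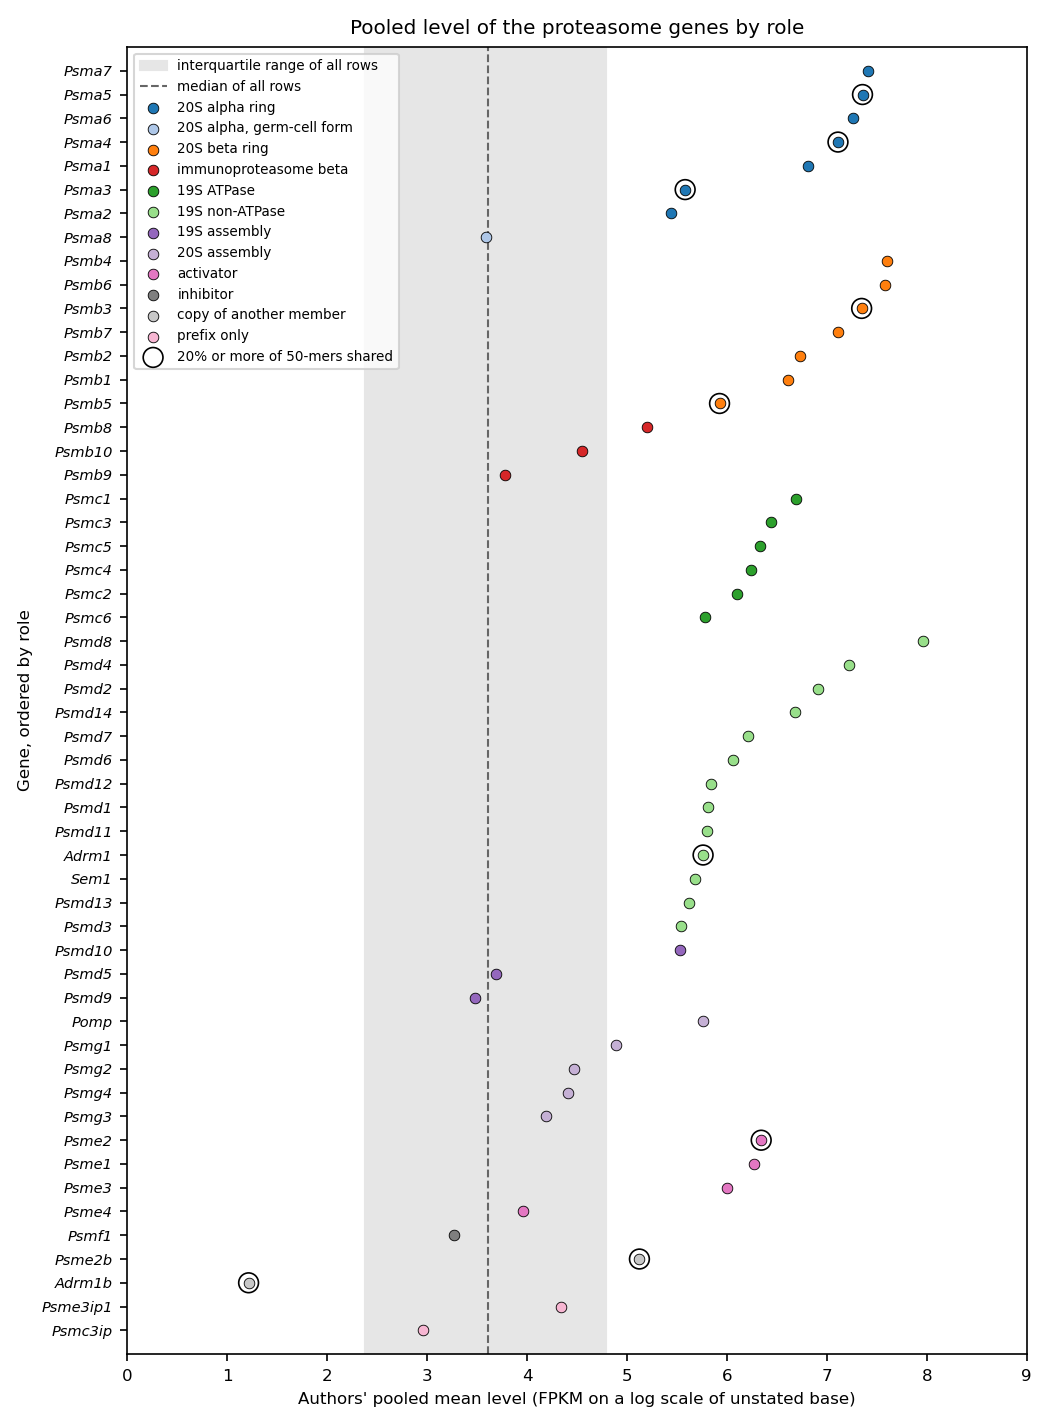
Authors' pooled mean level of the 54 proteasome genes on the x axis (FPKM on a log scale of unstated base), with 1 point per gene, ordered down the page by role and coloured by role. The dashed line is the median of all rows (3.60), the shaded band is their interquartile range, and open rings mark the 9 genes that share 20% or more of their 50-mers with other genes. The constitutive subunits sit to the right of the band, and Adrm1b (1.21) is the lowest point.

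The alpha ring, which gates the entrance of the barrel, had a median level of 7.11 over Psma1 to Psma7. Psma7 (7.41), Psma5 (7.36), Psma6 (7.27) and Psma4 (7.11) stood close together, followed by Psma1 (6.81). Psma3 (5.58) and Psma2 (5.45) formed a lower pair. Each ring of the assembled particle holds 1 copy of every alpha subunit. Psma3 and Psma2 also have the most annotated exonic bases of Psma1 to Psma7, 3894 and 3673. The rest range from 1234 (Psma6) to 3071 (Psma7). Whether the lengths behind the FPKM account for the lower pair was not tested. The distance between the highest and the lowest alpha gene was 1.97 on the log scale. The levels of Psma5, Psma3 and Psma4 are less certain, since 51.0%, 39.2% and 22.8% of their sampled 50-mers also occur in transcripts of other genes.

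Psma8, a variant alpha subunit known from the proteasome of male germ cells, was at 3.59, at the 49.7 percentile. It stood 3.82 below Psma7 on the log scale, the gene with which it shares its KEGG orthology entry. None of its sampled 50-mers occurs in another gene.

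The beta ring, which carries the cutting sites, had the same median as the alpha ring (7.11). Psmb4 (7.60), Psmb6 (7.58), Psmb3 (7.35) and Psmb7 (7.11) led, followed by Psmb2 (6.74) and Psmb1 (6.62). Of the subunits that cut, Psmb6 (caspase-like activity) and Psmb7 (trypsin-like activity) were in the upper part of the ring. Psmb5, the chymotrypsin-like subunit, was the lowest of the ring at 5.93. Its level is uncertain, because 58.0% of its sampled 50-mers occur in other genes. The same holds to a lesser degree for Psmb3, with 22.1%.

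The immunoproteasome subunits were all lower in the pooled mean than the constitutive subunits they replace. Psmb8 was at 5.20 and its partner Psmb5 at 5.93, a difference of -0.73 on the log scale. Psmb10 was at 4.55 and Psmb7 at 7.11 (-2.56). The distance was widest for Psmb9 at 3.78 and Psmb6 at 7.58 (-3.80). In places among all rows the pairs stood at the 81.5 and 89.2 percentile for Psmb8 and Psmb5, at the 70.5 and 95.9 for Psmb10 and Psmb7, and at the 53.7 and 97.0 for Psmb9 and Psmb6. The order among the immunoproteasome genes was thus Psmb8, Psmb10, Psmb9, while the order of their partners was Psmb6, Psmb7, Psmb5. Whether these differences exceed the spread between libraries was not tested. Annotated exonic bases were 3381 for Psmb8 and 899 for Psmb5, and 3660 for Psmb9 and 1872 for Psmb6. The third pair went the other way, with 1705 for Psmb10 and 3421 for Psmb7. The lengths behind the FPKM are not stated, and their part in these differences was not tested. None of the sampled 50-mers of Psmb8, Psmb9 or Psmb10 occurs in another gene, whereas 58.0% of those of Psmb5 do. The exons of an annotated gene on the opposite strand, Gm20496, cover 14.7% of the exonic bases of Psmb8. Those of Nek6, also on the opposite strand, cover 11.8% of Psmb7. Mir686, on the same strand, covers 12.1% of Psmb5. Whether strand was used in counting is not stated.

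**Figure D2:**
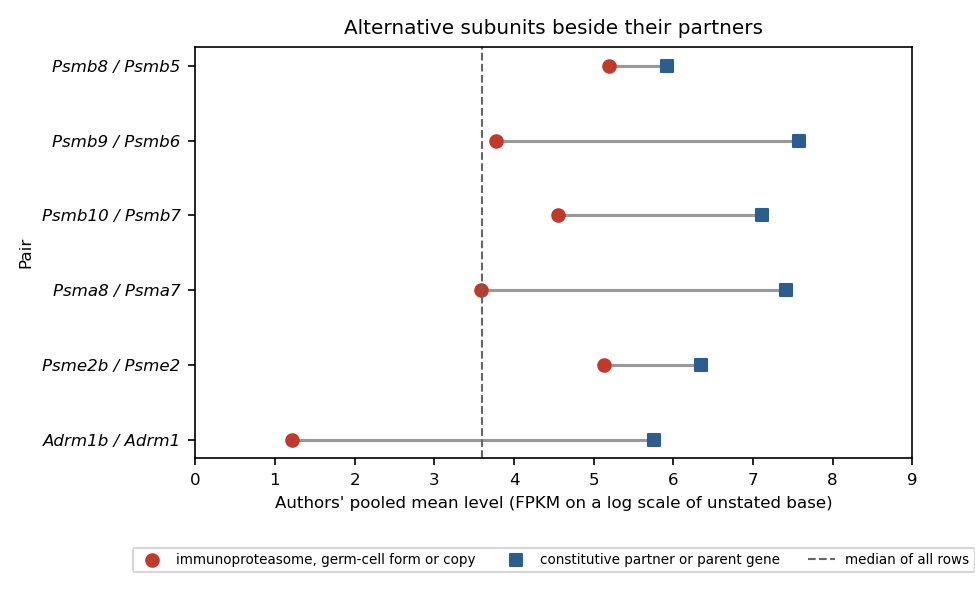
Authors' pooled mean level (FPKM on a log scale of unstated base, x axis) of 6 pairs of genes, with circles for the alternative subunit or copy and squares for its partner, joined by a line. Each circle lies left of its square, by 0.73 on the log scale for Psmb8 and Psmb5 and by 3.80 for Psmb9 and Psmb6. The dashed line is the median of all rows.

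Psmb8 and Psmb9 are neighbours in the MHC region. In GRCm38, the assembly that mm10 names, Psmb8 occupies chromosome 17 bases 34197721 to 34201454 (plus strand) and Psmb9 bases 34181987 to 34187764 (minus strand). The peptide transporter genes Tap1 (level 3.91) and Tap2 (3.83) lie beside them. Tap1 overlaps the gene body of Psmb9 by 212 bases on the opposite strand, and ends 495 bases before Psmb8. Exons of Tap1 cover 5.79% of the exonic bases of Psmb9. Psmb9 (3.78), Tap1 and Tap2 were thus within a narrow stretch of the scale, and Psmb8 (5.20) was above them. Psmb10 lies apart, at bases 105935735 to 105938444 of chromosome 8 (minus strand).

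The base of the regulatory particle is a ring of 6 ATPases that unfold the substrate, Psmc1 to Psmc6. They were the most even group, from 5.78 (Psmc6) to 6.69 (Psmc1), with a median of 6.29 and an SD of 0.31 over the 6 genes. Between these ends stood Psmc3 (6.44), Psmc5 (6.34), Psmc4 (6.24) and Psmc2 (6.10). The whole ring spanned 0.91 on the log scale, against 1.97 for the alpha ring and 1.68 for the beta ring.

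The 13 other subunits of the regulatory particle had a median of 5.84 and the widest range among the constitutive groups, 2.43 on the log scale. Psmd8 (7.96), a subunit of the lid, was the highest of all 54 members and ranked 244 among all rows. It was followed by the ubiquitin receptor Psmd4 (7.22), the scaffold subunit Psmd2 (6.92) and the deubiquitinase Psmd14 (6.68). Psmd7 (6.21), which pairs with Psmd14, and Psmd6 (6.06) came next. A group of 7 subunits, Psmd12 (5.84), Psmd1 (5.81), Psmd11 (5.80), Adrm1 (5.76), Sem1 (5.68), Psmd13 (5.62) and Psmd3 (5.54), lay within 0.30 of each other. The ubiquitin receptors Psmd4 and Adrm1 stood 1.46 apart on this scale, and 36.7% of the 50-mers of Adrm1 occur in its copy.

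Genes that assemble the particle were lower than all constitutive subunits of the part they assemble, except Pomp. It stood above Psma3 (5.58) and Psma2 (5.45). For the core particle, the chaperones Psmg1 (4.89), Psmg2 (4.47), Psmg4 (4.41) and Psmg3 (4.19) lay between the 62.9 and the 76.6 percentile. Pomp, the maturation factor that is consumed when a core particle is completed, was higher at 5.77, the 87.9 percentile. For the regulatory particle, Psmd10 (gankyrin) was at 5.53, whereas Psmd5 was at 3.68 and Psmd9 at 3.48. Exons of an antisense gene, Gm26745, cover 25.5% of the exonic bases of Psmd9, so its level is less certain. Annotated exonic bases were 7230 for Psmd5 and 7248 for Psmd9, but 1469 for Psmd10. In the core particle set, Pomp had the highest level and also the most, 5216. The part of length in these levels was not tested.

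The activators that cap the core particle formed a high and a low class. Psme2 (6.34) and Psme1 (6.27), which together form the interferon-inducible PA28 ring, differed by 0.07 on the log scale. Psme3, the nuclear activator, was close to them at the 89.8 percentile of all rows, and Psme4 (3.96), the large activator PA200, was at the 57.9 percentile. Annotated exonic bases were 8382 for Psme4, against 1764 (Psme2) to 2949 (Psme3) for the others, and the part of length was not tested. Psme1 and Psme2 also lie together, 5911 bases apart on opposite strands of chromosome 14, Psme1 at 55578123 to 55581529 and Psme2 at 55587441 to 55591113. Psmf1, the inhibitor PI31, was at 3.27, the lowest of the members with a role in the proteasome that are no copies.

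Copies were read at unequal levels. Psme2b, a copy of Psme2 on chromosome 11, was listed at 5.12, and Psme2 at 6.34. They share sequence, with 69.6% of the 50-mers of Psme2b and 46.9% of those of Psme2 found in other genes, so the division of reads between them is uncertain. Adrm1b was at 1.21 and Adrm1 at 5.76, and 83.4% of the 50-mers of Adrm1b occur in other genes. Of all 54 members, 40 share under 5% of their 50-mers with other genes and 9 share 20% or more. The rows that share only the prefix were Psme3ip1 (4.34), which encodes a protein that binds Psme3, and Psmc3ip (2.96), a meiotic recombination factor. Exons of Mlx on the opposite strand cover 21.2% of the exonic bases of Psmc3ip.

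Domain annotation followed these roles. The domain named proteasome subunit was assigned to 18 rows of the table, all of them members, namely the 8 Psma and 10 Psmb genes. The AAA ATPase domain was assigned to 27 rows, of which 6 were the Psmc genes, and the PA28 beta domain to 4 rows, Psme1, Psme2, Psme2b and Psme3. All 54 members matched a protein-coding gene of GENCODE M21, on 17 chromosomes. Levels were weakly related to annotated exonic length across the 54 genes (Spearman's rho = -0.20, a description over genes, which are not independent).

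Beside other large complexes, the place of the proteasome depended on which of its genes were counted. The constitutive subunits, picked by role, had a median of 6.44 (n = 33). It lay between 5.94 for 37 subunits of respiratory complex I and 6.85 for 17 vacuolar ATPase genes. The median of 80 cytosolic ribosomal protein genes was 9.46. These other sets were chosen by symbol and not by role. Their lowest levels were 4.14 (complex I), 0.81 (vacuolar ATPase) and 1.73 (ribosomal proteins). Over all 54 proteasome members the median was 5.83, below that of complex I. Over the 50 members chosen by symbol alone it was 5.97, close to that of complex I. Like the 49 of 54 proteasome members, most genes of the other complexes lay at or above the median of all rows. The counts were 37 of 37 (complex I), 16 of 17 (vacuolar ATPase) and 78 of 80 (ribosomal proteins). The differences between these sets were not tested.

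**Figure D3:**
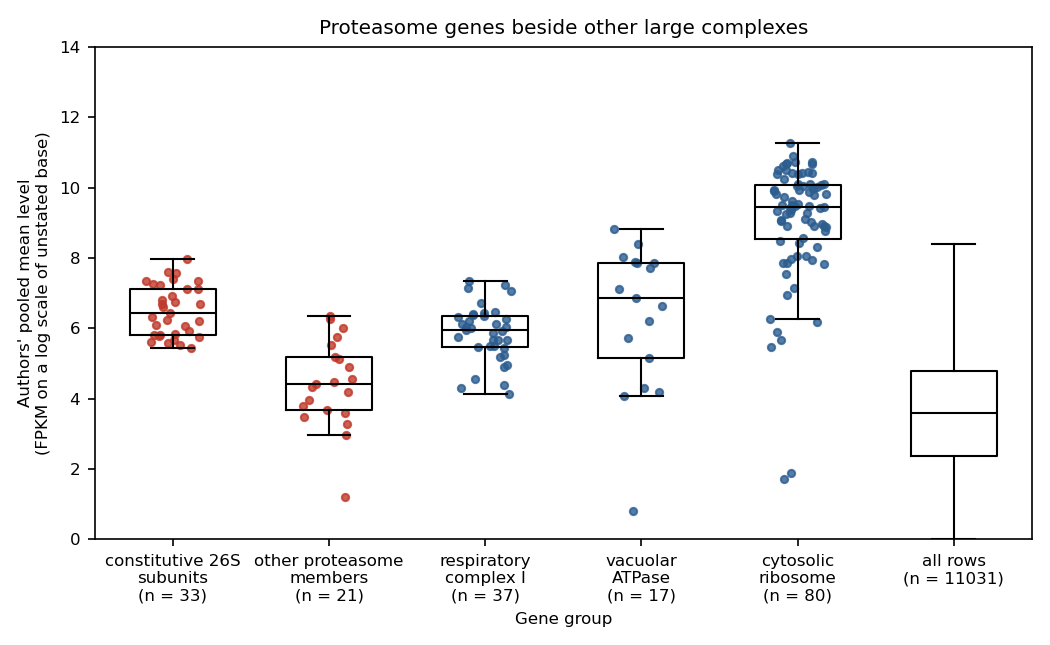
Authors' pooled mean level (FPKM on a log scale of unstated base, y axis) of genes in 5 groups and of all 11031 rows. Points are genes, boxes give the median and interquartile range, and whiskers reach the last value within 1.5 interquartile ranges. The constitutive proteasome subunits (median 6.44) lie above the other proteasome members (4.41) and below the ribosomal proteins (9.46).

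Genes that supply the proteasome were mostly well represented, with 8 of 9 at or above the median of all rows. The ATPase Vcp (7.17), which extracts substrates from complexes and membranes, was the highest of them, followed by Nfe2l1 (6.20), the transcription factor that raises proteasome genes when proteasome activity is short. Lowest were Ddi2 (3.77), the protease that activates it, and Ngly1 (3.10), which removes its glycans. Of 18 genes for ubiquitin supply and delivery, 17 lay at or above that median, from Rps27a (9.82), which encodes ubiquitin fused to a ribosomal protein, down to the ligase Ube3a (3.68). The activating enzyme Uba6 (3.15) lay below it.

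Genes of MHC class I peptide handling, which use the products of the proteasome, had 11 of 14 members at or above the median of all rows. B2m (9.76) and the chaperone Calr (9.62) were the highest, and Tapbpl (2.64) and the class I regulator Nlrc5 (1.98) the lowest. Irf1, a transcription factor that raises immunoproteasome genes, was at 3.41. The labelled cell type was checked on the same scale. Macrophage markers were present, with Lyz2 at 12.37, Cd68 at 9.53, Csf1r at 8.65, Itgam at 6.60 and Adgre1 at 4.45. The osteoclast markers Ctsk (6.74), Acp5 (5.94), Atp6v0d2 (5.73) and Mmp9 (5.17) were present as well, and Calcr was at 0.45, all in a mean that does not separate the groups.

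Promoters were searched for 4 short motifs, because proteasome genes are known targets of Nfe2l1 and immunoproteasome genes of interferon. RefSeq windows (GRCm38.p6) of 250 bases before to 50 bases after a start were matched by symbol for 45 of 54 members, in 49 windows, and both strands were read. The core of the antioxidant response element, TGACNNNGC, the type of site bound by Nfe2l1, occurred in 16.3% of the windows of members, against 12.4% of all 32851 windows. The core of the interferon response element, GAAA followed after 2 bases by GAAA, occurred in 10.2% against 3.44%, that is in Psme1, Psmb3, Psmd4, Psmd9 and Psmg4. The interferon-gamma activated site, TTCNNNGAA, occurred in 6.12% against 8.30%, in Psmb8, Psmd2 and Psmg1. CCAAT occurred in 32.7% against 37.4%. Such matches are descriptions of letters and not bound sites, and with 49 windows they were not tested.

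Among the exchangeable subunits, which can replace each other in the same particle, and the interferon-inducible ring, the windows that hold a motif are shown. Those left out are Psmb10 (chr8:105938343-105938642, minus strand) and both windows of Psme2 (chr14:55591052-55591351 and chr14:55590972-55591271, minus strand), in which none of the 4 motifs was found, and Psmb7, which was not matched. Capitals mark any of the 4 motifs, and each window runs 5′ to 3′ in the direction of its gene, with the start as position 0. Psmb5 (chr14:54617946-54618245, minus strand) holds an antioxidant response core at -47 to -39. Psmb6 (chr11:70525107-70525406, plus strand) holds one at -9 to -1. Psmb8 (chr17:34197945-34198244, plus strand) holds an interferon-gamma activated site at -97 to -89. Psmb9 (chr17:34187281-34187580, minus strand) holds only a CCAAT box read on its other strand, and Psme1 (chr14:55578244-55578543, plus strand) an interferon response core at 9 to 18, also on the other strand.
Psmb8: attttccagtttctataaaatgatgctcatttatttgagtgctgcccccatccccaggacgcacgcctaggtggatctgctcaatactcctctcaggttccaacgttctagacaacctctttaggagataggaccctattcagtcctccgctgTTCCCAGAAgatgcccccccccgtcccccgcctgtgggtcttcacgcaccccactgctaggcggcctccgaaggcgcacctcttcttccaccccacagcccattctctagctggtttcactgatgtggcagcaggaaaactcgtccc
Psmb9: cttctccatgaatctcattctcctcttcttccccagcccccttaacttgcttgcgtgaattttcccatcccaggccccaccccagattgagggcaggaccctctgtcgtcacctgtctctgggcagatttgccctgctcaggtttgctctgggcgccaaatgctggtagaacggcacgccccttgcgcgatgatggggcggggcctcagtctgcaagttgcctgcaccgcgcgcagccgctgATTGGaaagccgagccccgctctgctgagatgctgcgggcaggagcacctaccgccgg
Psme1: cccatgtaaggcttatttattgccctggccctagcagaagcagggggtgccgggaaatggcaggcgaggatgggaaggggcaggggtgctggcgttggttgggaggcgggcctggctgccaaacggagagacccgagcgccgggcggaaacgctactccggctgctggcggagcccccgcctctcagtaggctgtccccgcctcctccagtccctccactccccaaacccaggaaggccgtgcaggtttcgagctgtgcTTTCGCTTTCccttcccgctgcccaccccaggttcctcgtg
Psmb5: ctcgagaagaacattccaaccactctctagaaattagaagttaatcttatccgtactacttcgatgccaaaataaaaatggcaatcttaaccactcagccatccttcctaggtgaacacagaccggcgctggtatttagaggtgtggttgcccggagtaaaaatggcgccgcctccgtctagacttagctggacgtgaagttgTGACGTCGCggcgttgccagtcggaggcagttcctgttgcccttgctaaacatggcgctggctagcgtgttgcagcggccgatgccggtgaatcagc
Psmb6: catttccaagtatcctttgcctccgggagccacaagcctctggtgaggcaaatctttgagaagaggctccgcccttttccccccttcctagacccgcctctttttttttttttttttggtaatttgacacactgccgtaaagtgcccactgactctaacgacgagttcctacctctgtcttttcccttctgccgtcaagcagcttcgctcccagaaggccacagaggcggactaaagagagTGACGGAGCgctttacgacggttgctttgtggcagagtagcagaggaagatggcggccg

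**Figure D4:**
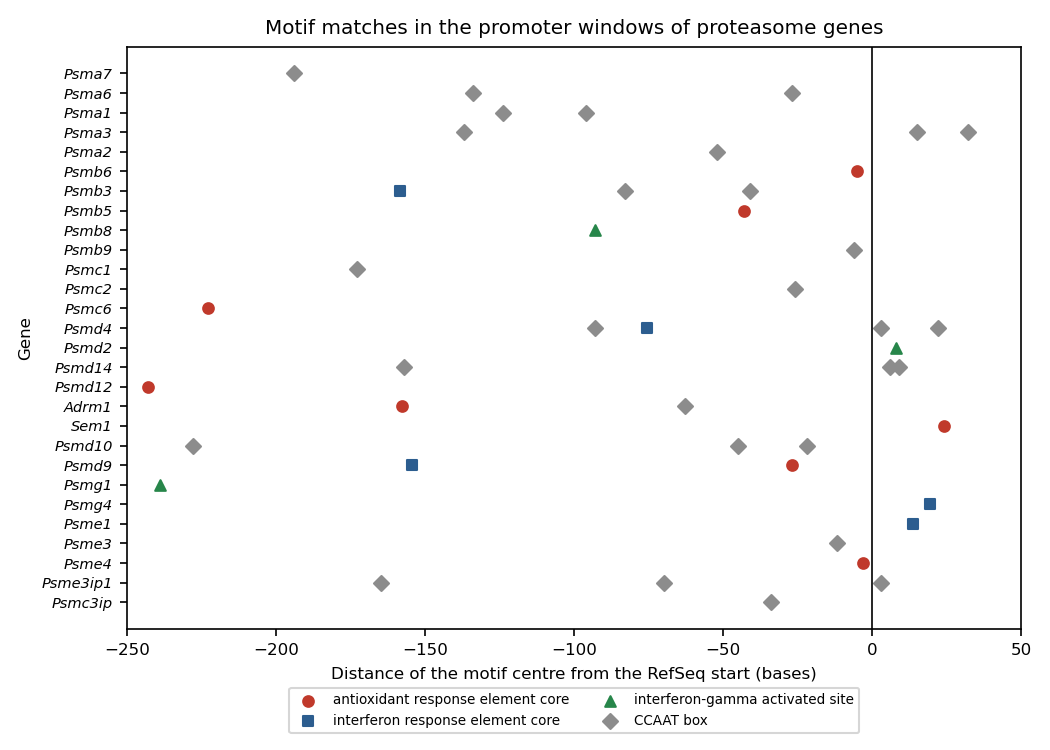
Distance of each motif match from the RefSeq start in bases (x axis) for the member genes with at least 1 match (y axis, ordered by role). Circles are antioxidant response cores, squares interferon response cores, triangles interferon-gamma activated sites and diamonds CCAAT boxes. The antioxidant cores of Psmb5, Psmb6 and Psmd9 lie within 50 bases before the start, that of Psme4 covers it, and those of Psmc6 and Psmd12 lie over 200 bases before it.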

How the data were processed

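RNA of RAW264.7 cells was poly(A)-selected and made into stranded paired-end libraries, per the labels. Build mm10 and DESeq, deposited as names alone, stand in the submitters' processing notes. For aligner, counter and annotation release, a name is not given in the sources used here. In this work, the only values used are a deposited score per row, which the authors named as a mean of FPKM and which is on a log scale, since its largest value over 11031 rows is 13.40. The 12 columns of counts and FPKM per library match no sample label and were not used. Columns of the authors' own comparison, which hold fold changes, p-values and a direction word, were not used either. Depth per sample is therefore unknown, no model was fitted and no test was run.

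Members and gene lists were chosen with earlier results of these data known. Named were all immunoproteasome subunits and their partners, the Psme genes, Psmf1 and the assembly chaperones, and the highest and lowest genes of each other group; the rest were added after their values were seen. Positions came from GENCODE M21 (GRCm38). Shared sequence was measured with 50-mers taken every 10 bases of each transcript of a member and looked up, on the same strand, in transcripts of all other genes. The method of search for the antioxidant response element core and for shared 50-mers was tested on simulated sequences with planted matches. The other motifs were not planted there. Python 3.11.15, pandas 2.3.3, scipy 1.17.1 and matplotlib 3.10.9 were used. Alternatives were other definitions of the members and ranks in place of levels. A planned count test, a planned reading of the authors' comparison and a planned comparison of protein sequences between members were not carried out.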

Additional observations from a re-analysis of the deposited data

How the results depend on the processing

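The median level of the members was 5.83 as reported, 5.97 over the 50 members chosen by symbol alone and 6.10 over the 45 chosen by pathway alone. In alternatives chosen after seeing the data, it was 5.81 without the 9 members that share 20% or more of their 50-mers with other genes, 5.92 without the 6 members with over 10% of their exonic bases in exons of other genes, and 5.97 without copies and rows that share only the prefix. The count of members at or above the median of all rows was 49 of 54 as reported, and 46 of 50, 42 of 45, 41 of 45, 45 of 48 and 47 of 50 in the same order. With ranks in place of levels, the 7 pairs kept their order by construction, and the distance between Psmb8 and Psmb5 was -7.75 percentile points. Other p-value thresholds, fold lines and adjustments, a restriction to rows at or above the median, another normalization, another filter and the omission of single replicates were planned and not run, because they need values per sample or the authors' comparison. No paired analysis was possible because the columns per library carry no sample label, so the replicate numbers could not be matched to values. The size of the error of each level is unknown, since the pooled mean carries no spread.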
